A study of Mus musculus with 8 samples.

Results

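Vasopressin (Avp), oxytocin (Oxt), the receptors Avpr1a and Oxtr, and the transcription factor gene Creb3l1 were followed in the suprachiasmatic nucleus (SCN), the hypothalamic nucleus where the central circadian pacemaker lies. The members were the probe sets annotated to exactly 1 of these 5 symbols. Each symbol had 1 probe set, so the choice of the brightest probe set per gene made no difference to any member. They were 5 of 19938 genes with a named probe set and 5 of the 12452 genes tested, all 5 lying above the level filter, a mean of 6.82 on the log2 scale. Oxtr lay nearest to it, with a mean of 6.94 over the 8 arrays.

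All mice were C57BL/6J and either lacked Gpr176 (Gpr176-/-, here KO), whose product is a G protein-coupled receptor with no known ligand, present in SCN neurons, or were wild type (WT). They had lived on 12 h of light and 12 h of dark for more than 2 weeks and were then kept in constant darkness, which all groups shared. The SCN was cut out by laser microdissection at circadian time 18 (CT18, subjective night) or 6 (CT6, subjective day), and RNA of 10 animals was pooled for every array. The groups were KO at CT18, WT at CT18, KO at CT6 and WT at CT6, with 2 arrays each, called A and B. The sources used here give neither the ages of the mice nor the part of the gene that was deleted. A pool averages its animals, so the errors below are those between pools. In such bulk tissue, fewer cells of a type and less RNA per cell cannot be told apart.

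Vasopressin is a peptide hormone that is also a transmitter of the dorsal, or shell, neurons of the SCN. There the heterodimer of CLOCK and BMAL1 drives its gene through E-boxes in the promoter, and PER and CRY proteins repress it, so that its RNA is known to peak in the subjective day. Oxytocin is the sister peptide, made mainly by magnocellular neurons of the paraventricular and supraoptic nuclei and not known as a main peptide of the SCN. Both are cut from precursors that also hold a neurophysin. V1a, the receptor that Avpr1a encodes, and the oxytocin receptor both couple to Gq and phospholipase C. CREB3L1 is a bZIP factor anchored in the endoplasmic reticulum that is freed by Golgi proteases, and in rat hypothalamus it is known to activate Avp transcription.

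The stretches upstream of Avp and Avpr1a are shown because these genes changed in opposite directions between the times. Promoters of 4 of the 5 members were found in the RefSeq promoter table (build GRCm38.p6), each 300 bases long with 250 before the start site. Creb3l1 was not among them. The 250 bases before the start of Avp are chr2:130582589-130582838 on the minus strand, and those of Avpr1a are chr10:122448249-122448498 on the plus strand. Capitals mark matches to the E-box CACGTG and to its variant CACGTT, searched on both strands.
Avp upstream: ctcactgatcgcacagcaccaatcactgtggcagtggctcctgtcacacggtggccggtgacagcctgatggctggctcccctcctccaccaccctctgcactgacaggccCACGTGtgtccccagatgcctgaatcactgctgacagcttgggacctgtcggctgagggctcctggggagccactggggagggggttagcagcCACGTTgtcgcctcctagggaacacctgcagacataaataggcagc
Avpr1a upstream: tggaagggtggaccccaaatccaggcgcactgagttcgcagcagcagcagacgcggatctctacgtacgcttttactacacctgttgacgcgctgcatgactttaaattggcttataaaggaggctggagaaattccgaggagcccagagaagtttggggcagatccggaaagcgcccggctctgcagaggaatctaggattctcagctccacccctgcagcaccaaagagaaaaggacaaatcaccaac

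The Avp stretch held CACGTG from -139 to -134 and CACGTT from -46 to -41, counted from the start site with the base before it as -1. The Avpr1a stretch held neither. Oxtr also held 1 CACGTG, from -43 to -38, and Oxt held none. The E-boxes of Avp (chr2:130582710-130582739) and Oxtr (chr6:112489851-112489880), both on the minus strand, are set side by side with their flanks. Avp fell at CT18, while Oxtr, whose mean lay just above the level filter, did not pass the test between the times.
Avp E-box window: cactgacaggccCACGTGtgtccccagatg
Oxtr E-box window: cgggccccgcccCACGTGccacactttaaa

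Of 32851 promoters of this length, 7.15% held CACGTG and 4.68% held CACGTT. The full cAMP response element TGACGTCA, present in 1.79% of promoters, and the D-box TTATGTAA, in 0.938%, matched none of the 4 members. The short cAMP response core CGTCA, which lies within TGACGTCA and occurs in 20.8% of promoters, matched Avpr1a at 1 place. AGGTCA, the core of elements bound by ROR and REV-ERB receptors and present in 16.3% of promoters, matched Oxt at 2 places and Oxtr at 1. These matches describe letters within the windows searched and do not show binding.

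Gpr176 itself, which checks the genotype labels, averaged 8.27 on the log2 scale in KO arrays and 9.57 in WT arrays (limma difference -1.30 ± 0.0491, SE). Its KO arrays ran from 8.02 to 8.56 and its WT arrays from 9.31 to 9.87, without overlap, and the KO signal stayed above the filter. Whether this probe set lies within the deleted part is not known here. The deposited medians of the 8 arrays lay between 7.34 and 7.39, and the A and B arrays of a group correlated at r = 0.996 to 0.998 over probe sets. All 12 genes of an SCN neuron list (Vip, Grp, Nms, Prok2, Six3, Six6, Lhx1, Vipr2, Syt10, Rgs16, Zfhx3 and Rora) lay above the filter. So did 12452 of the 19938 genes with a named probe set, so this does not check the tissue label. Of 11 genes typical of neighbouring hypothalamus, 9 lay above the filter as well, with Crh and Pdyn below.

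The first question was how the vasopressin and oxytocin systems differed between subjective night and day. Avp and Creb3l1 fell at CT18, Avpr1a rose, and Oxt and Oxtr did not pass the test, in each genotype and over both. Across genotypes, 3 of the 5 members were therefore called (limma, Benjamini-Hochberg adjusted p under 0.05 over all genes), where 16.8% of the 12452 genes tested were. The same 3 members were the ones whose 4 CT18 arrays did not overlap the 4 CT6 arrays, as was so for 21.0% of genes. The plot of levels on each array shows these 3 genes split by time and the other 2 not.

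**Figure D1:**
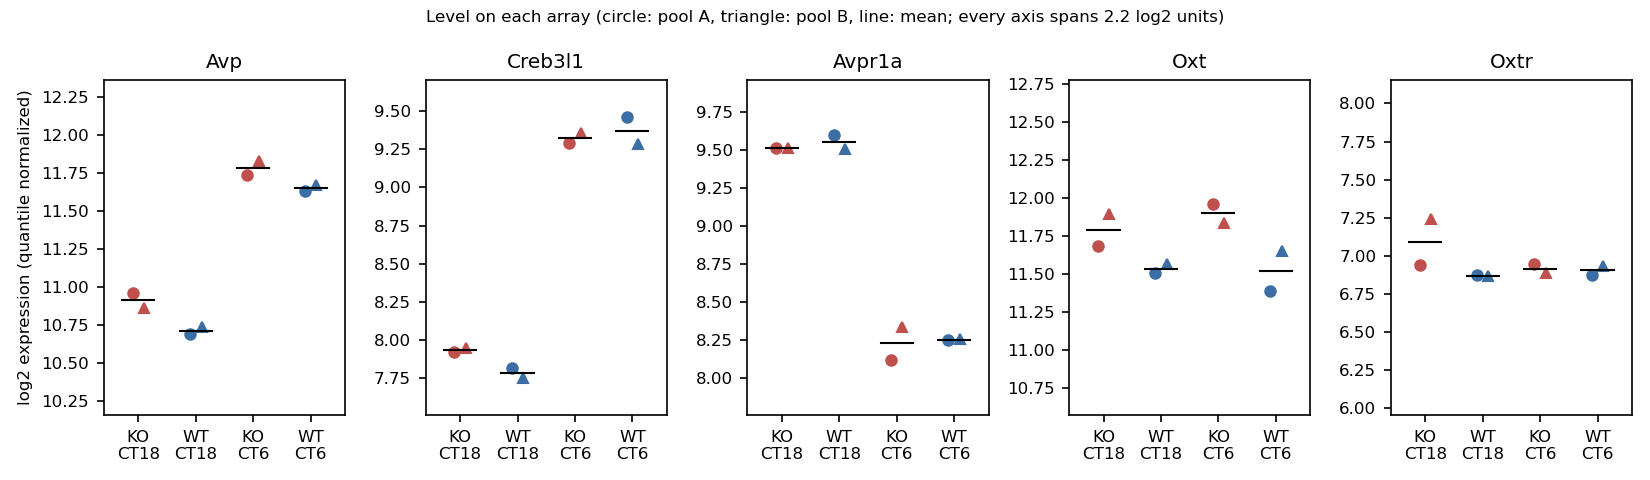
Log2 expression (vertical axes, quantile normalized) of Avp, Creb3l1, Avpr1a, Oxt and Oxtr on each of the 8 arrays, by group (KO red, WT blue; circle pool A, triangle pool B, line group mean of 2 arrays). Every axis spans the same number of log2 units around its own gene. Avp and Creb3l1 were lower and Avpr1a higher on all 4 CT18 arrays than on all 4 CT6 arrays, while the 4 KO arrays of Oxt all lay above the 4 WT arrays.

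Among the ligands, Avp stood at 10.96 and 10.86 on the KO arrays at CT18, 10.69 and 10.74 on the WT arrays at CT18, 11.74 and 11.83 on the KO arrays at CT6 and 11.63 and 11.67 on the WT arrays at CT6. Every CT18 array was lower than every CT6 array, with a gap of 0.67 log2 between the nearest arrays of the times. The order of the group means ran from KO at CT6 (11.78) through WT at CT6 (11.65) and KO at CT18 (10.91) to WT at CT18 (10.71). Within each time the genotypes, neighbours in that order, did not differ by the adjusted test. Avp averaged 10.81 ± 0.123 at CT18 and 11.72 ± 0.0877 at CT6 (SD, n = 4 arrays each). The fall was 0.90 ± 0.0424 log2 (SE), or 1.87-fold, over both genotypes (limma adjusted p = 1.11e-06). By size it ranked 29 of the 5665 genes with a difference below 0.

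Oxt, which neighbours Avp on chromosome 2 with 0 genes between them, did not share this fall. It stood at 11.69 and 11.89 on the KO arrays at CT18 and 11.51 and 11.56 on the WT arrays at CT18. At CT6 it stood at 11.96 and 11.84 on the KO arrays and 11.39 and 11.65 on the WT arrays. The times overlapped, and the CT18 minus CT6 difference was -0.05 ± 0.0678 log2 (95% interval -0.20 to 0.11, limma adjusted p = 0.712). The interval leaves out a fall as large as that of Avp. The exons for the neurophysin core are nearly identical in Avp and Oxt, and the sources used here do not place the probes of the 2 probe sets, so any signal shared between them could not be measured.

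Among the receptors, Avpr1a ran opposite to its ligand. Its log2 level was 9.51 and 9.51 on the KO arrays at CT18, 9.60 and 9.51 on the WT arrays at CT18, 8.12 and 8.34 on the KO arrays at CT6 and 8.25 and 8.26 on the WT arrays at CT6. The CT18 arrays all lay above the CT6 arrays, by at least 1.17 log2. The rise was 1.29 ± 0.0512 log2, or 2.44-fold, over both genotypes (95% interval 1.17 to 1.40, limma adjusted p = 3.69e-07). It was the third largest of the 6787 differences above 0. In the order of group means, the neighbours WT at CT18 (9.55) and KO at CT18 (9.51) did not differ by the test, nor did WT at CT6 (8.25) and KO at CT6 (8.23).

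Oxtr stood at 6.94 and 7.24 on the KO arrays at CT18 and 6.87 and 6.87 on the WT arrays at CT18. At CT6 it stood at 6.94 and 6.89 on the KO arrays and 6.88 and 6.93 on the WT arrays. All values but that of KO at CT18 B lay within a narrow band just above the filter, and that array exceeded its partner by 0.30 log2. The CT18 minus CT6 difference was 0.07 ± 0.0613 log2 (95% interval -0.07 to 0.21, limma adjusted p = 0.494). In the KO alone it was 0.18 ± 0.0867 (adjusted p = 0.267), and this value hung on the same array, being 0.33 without KO at CT18 A (adjusted p = 0.0417) and 0.025 without KO at CT18 B (adjusted p = 0.887).

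The other vasopressin receptors, Avpr1b (V1b, best known from pituitary corticotrophs) and Avpr2 (V2, best known from kidney), had means of 5.95 and 6.61 and lay below the filter, so neither was tested.

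Creb3l1 had the widest day-night difference of the members. It stood at 7.92 and 7.95 on the KO arrays at CT18, 7.82 and 7.75 on the WT arrays at CT18, 9.29 and 9.36 on the KO arrays at CT6 and 9.46 and 9.28 on the WT arrays at CT6. The gap between the nearest arrays of the times was 1.33 log2. Creb3l1 fell by 1.49 ± 0.0474 log2, or 2.81-fold (95% interval -1.60 to -1.38, limma adjusted p = 7.47e-08), and ranked 7 of the 5665 differences below 0. Its group means ran from WT at CT6 (9.37) through KO at CT6 (9.33) and KO at CT18 (7.93) to WT at CT18 (7.78). The A and B arrays of WT at CT6 differed by 0.18 log2, more than the gap between the 2 CT6 means.

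The second question was whether loss of Gpr176 changed these day-night differences. Avp fell by 0.87 ± 0.0599 log2 in the KO (95% interval -1.01 to -0.74) and by 0.94 ± 0.0599 in WT (-1.07 to -0.80). Avpr1a rose by 1.28 ± 0.0725 in the KO and by 1.30 ± 0.0725 in WT. Creb3l1 fell by 1.39 ± 0.067 in the KO and by 1.59 ± 0.067 in WT. In each genotype 3 of the 5 members were called, where 7.16% of genes were in the KO and 6.94% in WT. The limma adjusted p of these 6 values ran from 1.09e-06 for Creb3l1 to 3.35e-05 for Avp.

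The test of the difference itself, the KO day-night change minus the WT one, called none of the 5 members and 0 of the 12452 genes (0%). At an unadjusted p under 0.05 limma counted 605 genes, or 4.86%, and 0 members. For Avpr1a the difference was -0.02 ± 0.102 log2 (95% interval -0.25 to 0.21) and for Avp 0.06 ± 0.0848 (-0.13 to 0.25). Creb3l1, whose fall was the smaller in the KO, gave 0.20 ± 0.0948 (interval -0.02 to 0.41, limma adjusted p = 0.944). The intervals of Oxt (-0.43 to 0.18) and Oxtr (-0.06 to 0.49) also held 0. Changes in the day-night difference within these intervals are not excluded, and a p that misses the threshold does not show that the genotypes were alike.

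**Figure D2:**
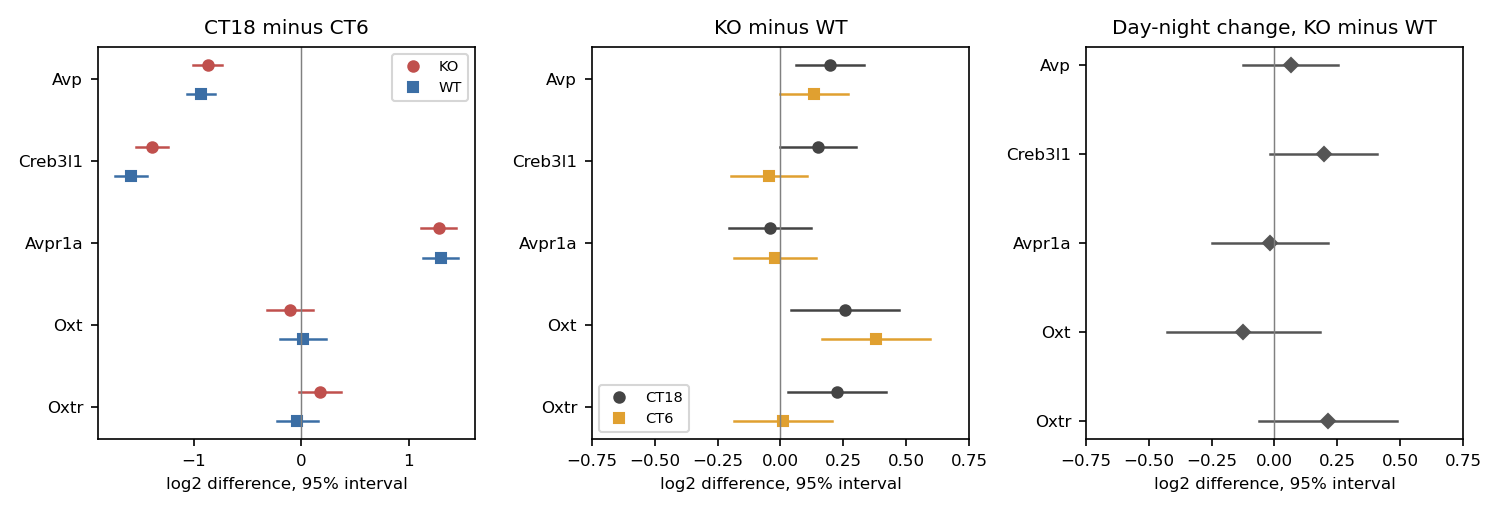
Log2 differences (horizontal axes) with 95% intervals from the limma fit for the 5 members. The left panel gives CT18 minus CT6 in KO (red) and WT (blue), the middle panel KO minus WT at CT18 (black) and at CT6 (yellow), and the right panel the KO day-night change minus the WT one. The day-night differences of Avp, Creb3l1 and Avpr1a stand far from 0 in both genotypes, and every interval in the right panel includes 0.

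The third question was whether Gpr176 loss shifted the level of any member. By adjusted p no member was called over both times, at CT6 or at CT18, where limma called 3 genes (0.0241%), 1 gene (0.00803%) and 1 gene (0.00803%) in all. At an unadjusted limma p under 0.05 the members counted were 2 of 5 over both times, against 12.0% of genes (1496), 1 of 5 at CT6, against 4.24% (528), and 3 of 5 at CT18, against 12.5% (1558).

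Oxt was 1 of these at each time. Its 4 KO arrays all lay above its 4 WT arrays, the nearest being KO at CT18 A (11.69) and WT at CT6 B (11.65). It was the single member whose genotypes did not overlap, as was so for 4.22% of genes. Oxt averaged 11.84 in KO arrays and 11.53 in WT arrays, a difference of 0.32 ± 0.0678 log2, or 1.25-fold (95% interval 0.16 to 0.47, limma adjusted p = 0.342). The difference was 0.25 ± 0.0959 at CT18 (adjusted p = 0.357) and 0.38 ± 0.0959 at CT6 (adjusted p = 0.975). Over both times it was the fifth largest of the 5469 differences above 0, yet it did not pass the correction. Leaving out 1 array at a time and the other settings gave values from 0.25 to 0.38, with adjusted p between 0.174 and 0.761.

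Avp lay 0.17 ± 0.0424 log2 higher in KO arrays (mean 11.35) than in WT arrays (mean 11.18), with a limma adjusted p of 0.342. The difference was 0.20 ± 0.0599 at CT18 (adjusted p = 0.319) and 0.13 ± 0.0599 at CT6 (adjusted p = 0.975). The 2 KO and 2 WT arrays of Avp did not overlap at either time, but this held for 45.8% of all genes at CT18 (4 of the 5 members, Avpr1a being the exception) and for 32.8% at CT6 (Avp and Oxt among the members). Over all 8 arrays the genotypes of Avp overlapped. The KO minus WT difference over both times was 0.12 ± 0.0613 for Oxtr (adjusted p = 0.469), 0.05 ± 0.0474 for Creb3l1 (adjusted p = 0.674) and -0.03 ± 0.0512 for Avpr1a (adjusted p = 0.820). Oxtr at CT18, at 0.22 ± 0.0867 (limma adjusted p = 0.366), again contained the high value of KO at CT18 B. Creb3l1, Gpr176, Oxt and Avp lie in this order on chromosome 2, so 3 of the 5 members share the chromosome of the deleted gene.

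**Figure D3:**
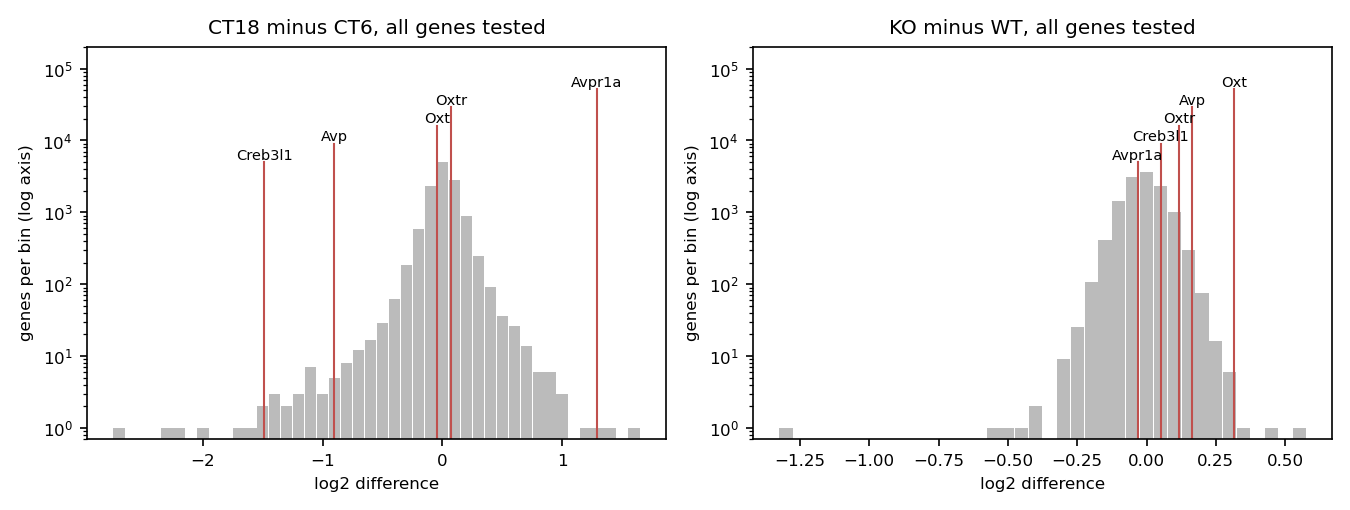
Distribution of log2 differences (horizontal axes) over the 12452 genes tested, as genes per bin on a log axis, for CT18 minus CT6 over both genotypes (left) and KO minus WT over both times (right). Red lines mark the 5 members, their heights only keeping the names apart. Creb3l1, Avp and Avpr1a lie in the tails on the left, and Oxt lies in the upper tail on the right.

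The levels of cell type lists are given beside the Oxt difference. Of the 11 genes of the neighbouring hypothalamus list (Sim1, Otp, Pou3f2, Trh, Crh, Pdyn, Cartpt, Nos1, Sst, Gal and Th) 9 were tested, and all 9 had a KO minus WT difference above 0 over both times, with a median of 0.12 log2 against -0.01 over all genes tested. None of the 9 was called. At CT18 6 of the 9 were above 0 and Sim1 (-0.08), Pou3f2 (-0.05) and Sst (-0.03) were below it, and at CT6 all 9 were above 0. The mean log2 level of the 11 genes was 7.87 and 7.91 on the KO arrays at CT18, 7.79 and 7.86 on the WT arrays at CT18, 7.99 and 7.98 on the KO arrays at CT6 and 7.84 and 7.84 on the WT arrays at CT6. All 4 KO arrays thus lay above all 4 WT arrays, narrowly. For the other 7 cell type lists the mean levels of the genotypes overlapped over the 8 arrays. Within each time, however, the ependymal list was higher in the KO without overlap. At CT18 its KO arrays ran from 9.20 to 9.23 and its WT arrays from 9.07 to 9.16. At CT6 they ran from 9.29 to 9.32 and from 9.18 to 9.28. At CT18 only, the microglia list was also higher in the KO without overlap, and the astrocyte, endothelial and mural, and leptomeningeal lists were lower. Differences of 1 sign over both times were not particular to the neighbouring hypothalamus list either. All 5 tested microglia genes (median 0.08) and all 4 ependymal genes (median 0.09) were above 0, while all 7 oligodendrocyte genes (median -0.13), all 5 astrocyte genes (median -0.12) and all 5 endothelial and mural genes (median -0.04) were below 0, and none was called. The mean of the SCN neuron list ran from 10.37 to 10.75 in KO arrays and from 10.37 to 10.73 in WT arrays. Because this mean differed between the times, its genotypes were also compared within each time, where they overlapped as well. Of its 12 genes 5 were above 0 and 7 below over both times, with a median of -0.02. Among them Nms was 0.29 ± 0.0451 log2 higher in the KO (limma adjusted p = 0.132). Its KO arrays (11.08 to 11.26) all lay above its WT arrays (10.71 to 11.07), narrowly. What part any of these lists has in the Oxt and Avp differences was not tested.

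Th, which encodes tyrosine hydroxylase, the first enzyme of dopamine synthesis, was also the gene whose pattern was most like that of Oxt, with a Pearson r of 0.968 over the 8 arrays. Th stood at 7.99 and 8.19 on the KO arrays at CT18 and 7.76 and 7.94 on the WT arrays at CT18. At CT6 it stood at 8.18 and 8.07 on the KO arrays and 7.71 and 7.98 on the WT arrays. The B array was the higher in WT at both times and in KO at CT18, for Th and for Oxt alike. A high r over these same arrays brings a shared order and a shared genotype difference with it, so neither adds to the likeness. The KO minus WT difference of Th was 0.26 ± 0.0727 log2 over both times (limma adjusted p = 0.342), and that of the neuropeptide gene Gal was 0.26 ± 0.0631 (adjusted p = 0.342).

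**Figure D4:**
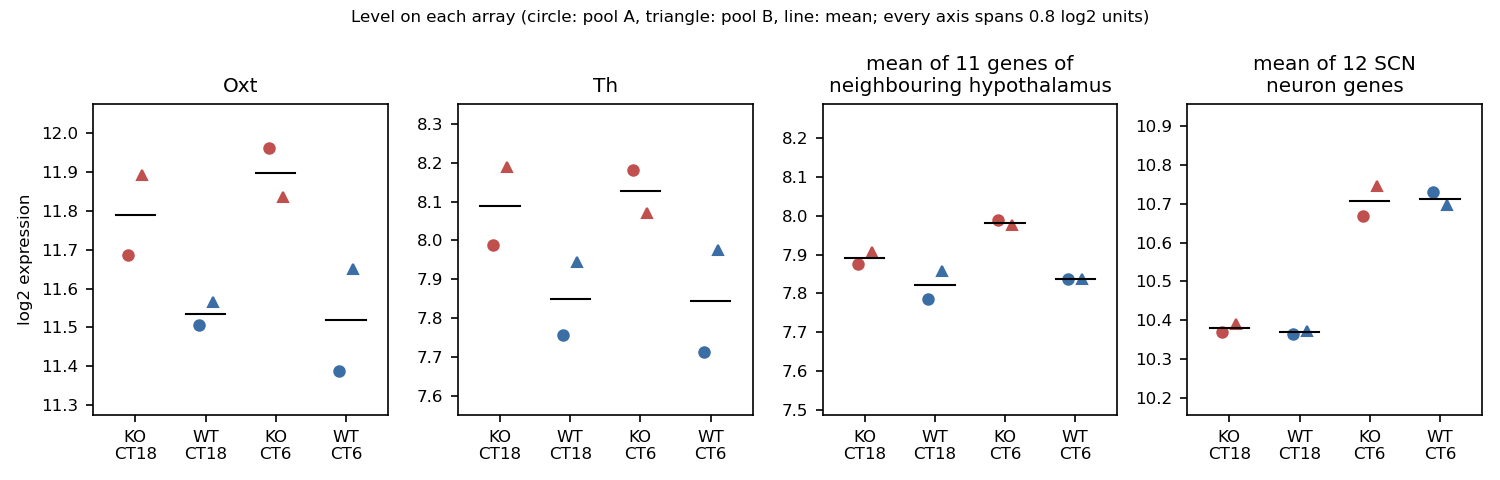
Log2 level (vertical axes) on each array of Oxt, of Th, of the mean of 11 genes of neighbouring hypothalamus and of the mean of 12 SCN neuron genes, by group (KO red, WT blue; circle pool A, triangle pool B, line group mean of 2 arrays). Oxt and the neighbouring list are higher on all KO arrays than on all WT arrays, as is Th by a narrow margin. The mean of the SCN neuron list splits by time and not by genotype. Among its 12 genes Prok2 (-2.67 log2), Rgs16 (-1.40) and Rora (-0.83) fell most at CT18. In all, 2 of the 12 rose and 5 fell by the adjusted test, with a median difference of 0.03.

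The other genes most like each member were taken as the 5 with the highest Pearson r over the 8 arrays among 11715 tested genes (provisional, small RNA, olfactory and vomeronasal receptor symbols left out), as a description without a test. For the members that changed with time, the arrays fall into 2 separate sets by time, so that any gene with a clean day-night difference scores high, and 128 genes exceeded r = 0.95 for Avp, 145 for Creb3l1 and 251 for Avpr1a. Those nearest to Avp were Mt2, Rcan1, Fbxl21, Fndc9 and Eif2a (r from 0.996 to 0.990). Mt2 is a metallothionein and Rcan1 an inhibitor of calcineurin, and they fell at CT18 by 0.26 and 0.58 log2. Creb3l1 was most like Rgs16, Prok2, Per1, Sik1 and St8sia6 (r = 0.996 each). Rgs16 regulates Gi-class signalling, Prok2 is a secreted output peptide of the SCN, Per1 a clock repressor and Sik1 a kinase that restrains CREB coactivators.

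Avpr1a was most like Tuba8, Prr15, Arntl, Tarsl2 and Rasd1 (r from 0.998 to 0.996), of which Arntl encodes the clock activator BMAL1 and rose by 0.64 log2. After Th, the genes most like Oxt were Ctnnbl1, Rnf220, Sgta and Urm1 (r from 0.951 to 0.936), and 2 genes in all exceeded r = 0.95. For Oxtr they were Csad, Dmac2l, Kremen2, Kctd17 and Cdc42se1 (r from 0.952 to 0.925), with 1 gene above 0.95. Like Oxtr, each of these genes had its highest value on KO at CT18 B (8.18, 8.38, 7.18, 8.40 and 8.63). These r values therefore lean on that array.

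The genes around the members in peptide synthesis and signalling were read from a list of 46, of which 40 had a named probe set and 35 were tested. Over both genotypes 3 rose and 8 fell at CT18, with a median of -0.03 log2 against 0.01 over all genes tested. Of all 12452 genes 1250 rose and 846 fell, 16.8% in all. In the KO 1 rose and 3 fell, where 7.16% of all genes were called, and in WT 3 rose and 2 fell, where 6.94% were. The lists are short, so their counts are read only as a description beside these shares. No gene of the list was called for KO minus WT or for the difference of the day-night change.

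Of 5 prohormone processing genes 1 fell and none rose, a share near that of all genes. Pcsk1, the convertase that cuts peptide precursors in secretory granules, fell by 0.68 ± 0.0587 log2 at CT18 (limma adjusted p = 6.05e-05). It stood at 9.36 and 9.64 on the KO arrays at CT18, 9.43 and 9.48 on the WT arrays at CT18, 10.10 and 10.15 on the KO arrays at CT6 and 10.16 and 10.21 on the WT arrays at CT6, with no overlap of the times. Cpe, the carboxypeptidase that trims the cut ends (0.06 ± 0.0387, adjusted p = 0.329), and Pam, which amidates peptides such as vasopressin (-0.03 ± 0.0397, adjusted p = 0.687), did not pass.

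Of 12 Gq signalling genes 3 rose and 1 fell at CT18. Grk5, a kinase that phosphorylates active receptors, rose by 0.32 ± 0.0534 (limma adjusted p = 0.00305), Prkca, a protein kinase C, by 0.30 ± 0.037 (adjusted p = 0.000552), and Plcb4, a phospholipase C of this pathway, by 0.20 ± 0.0493 (adjusted p = 0.0207). Arrb1, a β-arrestin, fell by 0.22 ± 0.0365 (adjusted p = 0.00329). Gnaq and Gna11, which encode the G protein subunits themselves, were at -0.01 ± 0.0406 (adjusted p = 0.920) and 0.03 ± 0.0455 (adjusted p = 0.717). The call of Plcb4 was lost without WT at CT6 A, WT at CT18 A, KO at CT6 A or KO at CT18 B (highest adjusted p 0.0770).

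Of 5 tested genes of the CREB3 and ATF6 family and its protease 3 fell and none rose. Creb3l2, the closest relative of Creb3l1, fell by 0.28 ± 0.0409 (limma adjusted p = 0.00166), with 8.05 and 8.11 on the KO arrays at CT18, 8.12 and 8.14 on the WT arrays at CT18, 8.41 and 8.42 on the KO arrays at CT6 and 8.41 and 8.29 on the WT arrays at CT6. Atf6, a sensor of misfolded protein that is cut in the Golgi as CREB3L1 is, fell by 0.15 ± 0.0361 (adjusted p = 0.0199), and Mbtps1, the site-1 protease that cuts them, by 0.14 ± 0.0409 (adjusted p = 0.0445). Creb3 itself was at -0.13 ± 0.0419 (adjusted p = 0.0629) and Atf6b at 0.08 ± 0.0413 (adjusted p = 0.245). The call of Mbtps1 was lost without any 1 of the 8 arrays, and that of Atf6 without WT at CT6 B, WT at CT18 B, KO at CT6 B or KO at CT18 A (highest adjusted p 0.143 and 0.106).

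Of 10 genes for the COPII coat, which carries cargo out of the endoplasmic reticulum, 3 fell and none rose, namely Sar1b (-0.19 ± 0.0563), Sec24a (-0.17 ± 0.0393) and Sec24d (-0.15 ± 0.0443), with limma adjusted p from 0.0186 to 0.0461. Sec23a, a known target of CREB3 family factors, was at -0.02 ± 0.0436 (adjusted p = 0.826). Sar1b kept its call only without WT at CT6 A and Sec24d only without WT at CT18 A when 1 array was left out, and Sec24a lost it without WT at CT6 A, WT at CT18 B, KO at CT6 A or KO at CT18 B (highest adjusted p 0.118, 0.140 and 0.0634). Caprin2, an RNA-binding protein that acts on Avp mRNA in rat, was at 0.02 ± 0.0452 (adjusted p = 0.783), and the developmental genes Arnt2 (-0.08 ± 0.0386, adjusted p = 0.175) and Magel2 (-0.17 ± 0.0513, adjusted p = 0.0518) did not pass.

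**Figure D5:**
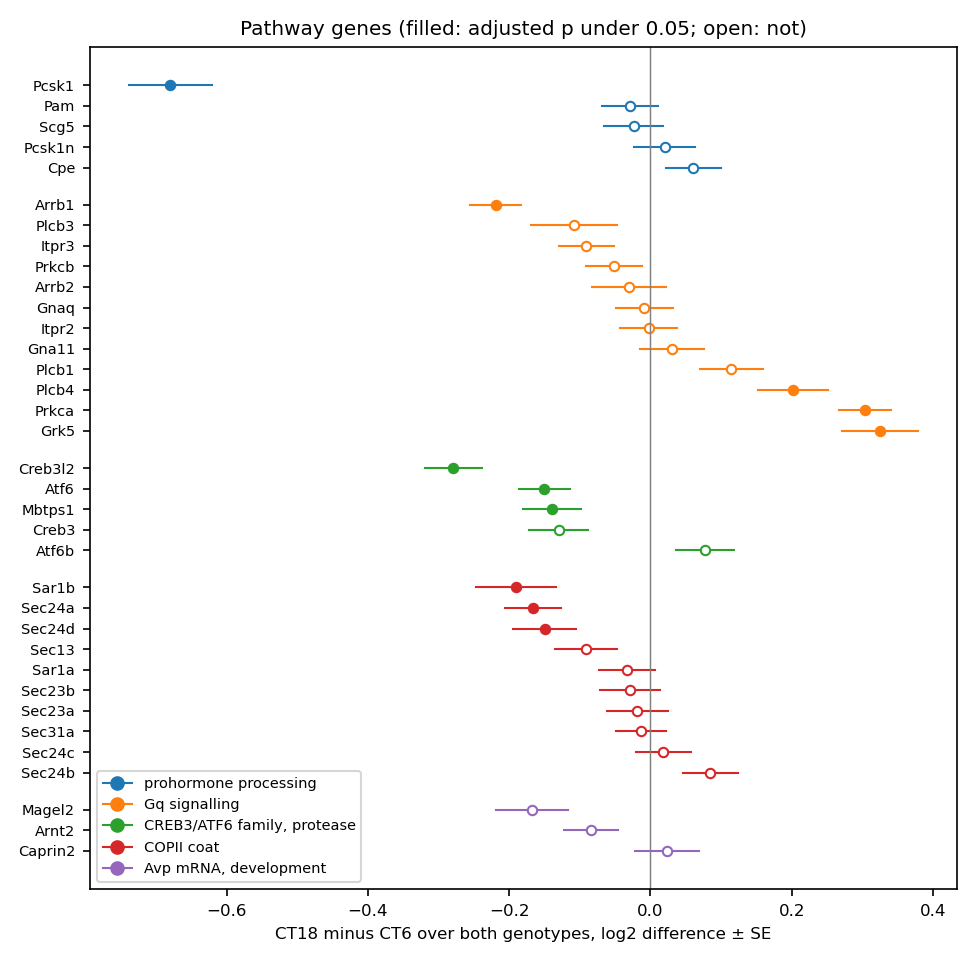
CT18 minus CT6 over both genotypes (horizontal axis, log2 difference with its standard error from the limma fit) for the 35 pathway genes tested, grouped and coloured by role. Filled points passed an adjusted p of 0.05 and open points did not. Pcsk1 stands furthest to the left, and Grk5 and Prkca furthest to the right.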

How the data were processed

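The authors deposited 1 table of log2 values for 28853 probe sets on 8 arrays. Per the labels' protocols, RNA was purified on columns, amplified with a whole-transcript kit and labelled with biotin. Background correction, summarisation and normalization are not given in the sources used here, and the files hold no detection calls. The number of arrays, 2 a group, limits the precision.

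Lower quartiles differed by up to 0.139 log2 between arrays, so the columns were quantile normalized. A change common to most genes would be removed by this step. Probe sets were named from the platform annotation (21789 with 1 symbol, 1621 with several, 5443 unnamed here). All 5 members matched the RefSeq table by Entrez number. The brightest probe set of each of 19938 genes was used, and the 12452 with a mean at or above the 40th percentile of all probe sets were tested. With limma 3.58.1 (R 4.3.3), 1 model over the 8 arrays estimated the mean of each of the 4 groups. Its 7 contrasts were adjusted by Benjamini-Hochberg over all genes tested with a call threshold of 0.05. The ± values are the model's standard errors except where marked SD, and intervals are at 95%. The fit was tested on simulated data for CT18 minus CT6 over both genotypes, with 200 changed genes in each of 10 draws. It recovered 85.05% of them at 0.25 log2 and 100% at 1 log2. Of the calls 6.86% and 5.84% were false, somewhat more than the threshold of 0.05 aims at. The simulated noise was normal and independent between genes and arrays, with the spread that the fit had estimated for each gene. These rates therefore describe that setting, and the other contrasts were not simulated.

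The members, gene lists and settings were chosen with earlier results of these data known. The genes named are the 5 members, Gpr176, the 5 genes most like each member, and members of the lists. Alternatives were the deposited values, median centring, other level filters, an intensity trend, every probe set on its own, replicate letters as a block and each array left out.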

Additional observations from a re-analysis of the deposited data

How the results depend on the processing

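The 35 differences of the 5 members (7 contrasts each) were recomputed under 15 alternatives, and 524 of the 525 values kept their side of the threshold, with no called value changing sign. The exception was Oxtr between times in the KO, which passed without KO at CT18 A and ran from 0.025 to 0.33 log2 over the arrays left out. In that fit KO at CT18 rests on 1 array, assumed to vary like the others. The calls of Avp, Avpr1a and Creb3l1 between times held under all 15, over both genotypes with values from -0.93 to -0.88, 1.24 to 1.34 and -1.53 to -1.45.

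Counts of called genes moved more. With 1 array left out, the count of 2096 over both genotypes ran from 1385 to 1803, the 864 in WT from 311 to 827, the 891 in the KO from 382 to 795, and the 3 for KO minus WT over both times from 1 to 4. Median centring gave 590 in the KO between times and, for KO minus WT, 5 over both times, 2 at CT6 and 3 at CT18. The deposited values gave 6 over both times and 2 at CT6, no level filter gave 1 and an intensity trend 7 over both times. Of these KO minus WT genes none was higher in the KO in the values reported, against 2 of the 6 and 1 of the 2 with the deposited values and 1 of the 5 and 1 of the 2 (CT6) with median centring. The cause of these moves was not tested. With the letter A or B as a replicate block, KO minus WT counted 4 genes over both times and 2 at CT6, and no call of a member changed. The labels do not say what the letters share, and A minus B correlated between groups at r from -0.22 to 0.26 over genes, so the letters were not taken to pair the pools. Among pathway genes, Atf6, Mbtps1, Sar1b and Sec24d lost their day-night call with the deposited values and with median centring, and Sec24a with median centring; without a level filter or with the 20th percentile filter Mbtps1, Sar1b and Sec24d lost it, with every probe set on its own Sar1b and Sec24d, and with the intensity trend or the replicate block Sec24d. Files without detection calls give no signal over background, so what dimness limits could not be measured.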
